A study of Homo sapiens with 16 samples.

Results

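The binding sites of HNF4A, KLF5 and MYC in early S phase were compared with one another in LoVo, an established cell line from a human colon adenocarcinoma. The members are all peaks of the 3 S-phase factor lists, 33306 of the 146596 peaks in the 12 lists of the series. HNF4A had 15437 of them, MYC 11941 and KLF5 5928. Binding was measured with ChIP-seq (chromatin immunoprecipitation followed by sequencing), in which protein is cross-linked to DNA, the DNA is sheared, and fragments pulled down with an antibody are sequenced. All 3 groups were LoVo cells held in early S phase by a double thymidine block, with 2 mM thymidine for 12 h, a release of 8 h and another 12 h of thymidine, and no other agent is named for them. M-phase lists, used below as a separate readout, came from LoVo cells held for 12 h in thymidine and then 8 h in 200 ng/ml nocodazole. An siRNA against the cohesin subunit RAD21 is named in the series design, but no sample label carries it.

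HNF4A is a nuclear receptor that binds DNA as a homodimer and directs gene programmes of intestinal and liver epithelium. KLF5 is a zinc-finger factor of the proliferating crypt epithelium that recognises GC-rich elements, and MYC is a helix-loop-helix factor that binds E-box elements together with MAX and drives growth and ribosome production. All of them are known to occupy active promoters and enhancers, which in many tissues are bound by several factors within the same stretch of open chromatin. RAD21 belongs to cohesin, a ring complex that holds chromatin loops and sister chromatids, and CTCF is a DNA-binding protein that often retains cohesin at its sites.

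Each factor was measured in 1 library, so the differences below have no replicate check and no test across samples exists. Intervals are 95% intervals over peaks and cover counting error only. The peak lists hold no marker that checks the cell type or the cell-cycle phase. After removal of repeated reads, called tags here, the libraries held 12182221 tags for HNF4A, 10345059 for KLF5 and 9282892 for MYC. The part of depth in the list lengths was not tested. All 3 were called against the same S-phase rabbit IgG library of 10753369 tags. Peaks of histone H3, called against the same control, were met by 0.428% of the HNF4A list, 1.06% of the KLF5 list and 0.955% of the MYC list. The median peak was 1149 bp wide for HNF4A, 1330 bp for KLF5 and 1354 bp for MYC. The fragment length that the peak caller modelled was shorter for HNF4A too, at 240 bp against 287 and 278 bp, and its part in the widths was not tested.

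The 3 lists differed in how much of each was shared. A peak was called shared when a peak of another factor overlapped it by at least 1 bp, and private otherwise. Among HNF4A peaks, 9454 (61.2%, 60.5 to 62.0%) were private, among MYC peaks 5265 (44.1%, 43.2 to 45.0%), and among KLF5 peaks only 1248 (21.1%, 20.0 to 22.1%). KLF5 met MYC at 66% of its peaks and HNF4A at 52.8%. Seen from MYC, 42.7% of peaks met HNF4A and 33.3% met KLF5. HNF4A met MYC at 33.6% and KLF5 at 20.7% of its peaks. These shares move with the length of the partner list, which is why each overlap is given from both sides.

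KLF5 overlapped the shorter of the other 2 lists more often. The HNF4A list held more peaks and covered more of the genome than the MYC list, 19.3 Mb against 17.8 Mb. More overlap with MYC than with HNF4A was found on all 23 chromosomes compared (1 to 22 and X). With each list cut to its 5000 peaks of highest score, 41.6% of KLF5 peaks overlapped MYC and 23.5% overlapped HNF4A, and 17.6% of MYC peaks overlapped HNF4A. The order of the private shares, HNF4A above MYC above KLF5, held with lists of equal length as well, at 70.1, 52.4 and 46.2%. It was found on 22 of 23 chromosomes. The exception was chromosome 19, where 42.4% of HNF4A and 45.4% of MYC peaks were private.

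Chaining overlapping peaks gave 23218 separate sites, which fall into 7 combinations of factors. HNF4A was listed alone at 9454 sites (40.7%), MYC alone at 5265 (22.7%) and KLF5 alone at 1248 (5.38%). Of the pairs without the third factor, HNF4A with MYC was the most frequent with 2650 sites, followed by KLF5 with MYC at 1487 and HNF4A with KLF5 at 747. All 3 factors were listed at 2367 sites (10.2%), more than at the HNF4A-KLF5 and KLF5-MYC pairs together. A merged site is the union of its peaks, so its width grows with each peak added. The median was 1096 to 1213 bp for sites of 1 factor, 1508 to 1685 bp for pairs and 2109 bp for sites of all 3.

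**Figure D1:**
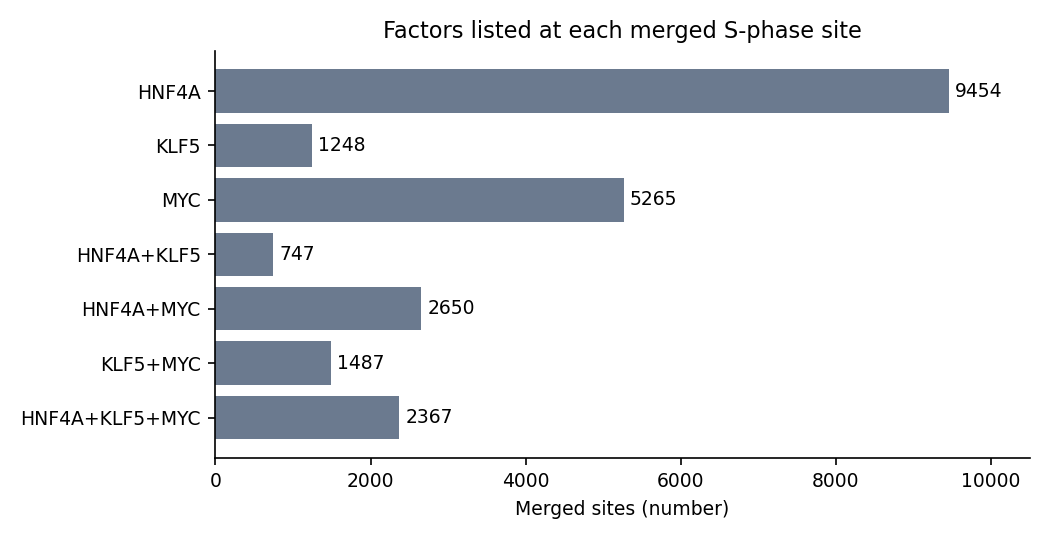
Number of merged S-phase sites (horizontal axis) for each of the 7 combinations of HNF4A, KLF5 and MYC (vertical axis), with 1 library per factor. Sites of HNF4A alone are the most numerous at 9454, and the 2367 sites of all 3 factors outnumber those of the HNF4A-KLF5 pair (747) and of the KLF5-MYC pair (1487).

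The presence of one partner went with the presence of the other. HNF4A peaks that overlapped KLF5 also overlapped MYC in 75.2% of cases (2406 of 3198), against 22.8% of HNF4A peaks without KLF5. This difference of 52.5 percentage points (50.8 to 54.1) was 50.04 points when peaks were compared within 10 equal groups of tags. KLF5 peaks with HNF4A also met MYC in 75.5% of cases, against 55.4% of those without HNF4A, a difference of 20.1 points (17.7 to 22.4). MYC peaks with HNF4A met KLF5 in 47.0% of cases, against 23.04% of the remaining MYC peaks, a gap of 23.9 points (22.2 to 25.6). These last differences were 14.4 and 20.2 points within groups of tags. Where a KLF5 peak had exactly 1 partner, that partner was MYC in 66.9% of 2318 cases (64.9 to 68.8%). HNF4A peaks with 1 partner had MYC in 77.9% of 3577 cases, and MYC peaks with 1 partner had HNF4A in 63.2% of 4280. Such shares also move with the partner lists, which held 15437 HNF4A, 11941 MYC and 5928 KLF5 peaks. For HNF4A and for MYC the more frequent partner had the longer list, and for KLF5 it had the shorter one. The part of list length in these shares was not tested.

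Shared peaks held more tags and were wider than private ones in all 3 lists. Per 1000000 library tags, the median was 2.30 at private HNF4A peaks, 3.08 with KLF5 alone, 2.63 with MYC alone and 3.20 with both. KLF5 went from 2.13 at private peaks to 2.61 with either partner alone and 3.29 with both. For MYC the medians were 2.69 at private peaks, 3.23 with HNF4A alone, 3.55 with KLF5 alone and 4.63 with both. The quartiles of the classes overlapped throughout, so tags alone do not tell a private from a shared peak. Median widths rose from 1096 to 1369.5 bp for HNF4A, from 1129 to 1489.5 bp for KLF5 and from 1213 to 1690 bp for MYC between private peaks and those with both partners. Width and tags go together. The width difference between shared and private peaks was 174, 256.5 and 276.5 bp over all peaks of HNF4A, KLF5 and MYC. Within 10 groups of equal size by tags it was 107, 21.1 and 67.4 bp. Tags still varied within a group, such as from 74 to 537 in the highest HNF4A group.

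**Figure D2:**
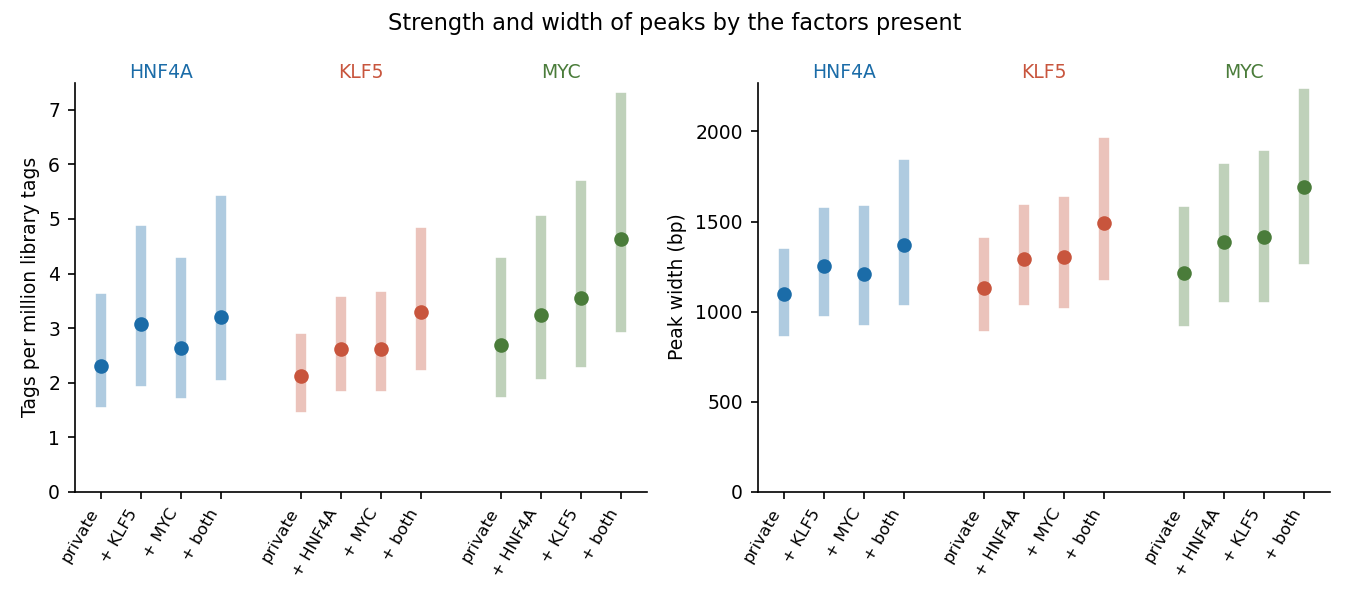
Tags per 1000000 library tags (left) and peak width in bp (right) of S-phase peaks, by factor and by the other factors that overlap them. Points are medians and bars run from the lower to the upper quartile over peaks of 1 library. Peaks with both partners have the highest medians in each list, such as 4.63 for MYC against 2.69 at its private peaks, and the bars overlap.

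The strongest KLF5 peaks were nearly all shared. Of the 100 KLF5 peaks with the most tags, 96 overlapped MYC, 86 overlapped HNF4A and 3 were private. The 100 strongest HNF4A peaks overlapped MYC in 85 and KLF5 in 70 cases, with 9 private. Among the 100 strongest MYC peaks, 72 overlapped KLF5, 69 overlapped HNF4A and 15 were private. With each list divided into 10 equal groups by tags, the private share fell from the lowest to the highest group from 73.6 to 37.4% for HNF4A, from 46.8 to 6.58% for KLF5 and from 65.9 to 24.7% for MYC.

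This gradient depended on the measure of strength, most of all for HNF4A. By fold enrichment over the local background, the authors' value within each list, 50.6% of HNF4A peaks in the lowest of the 10 groups were private. The share was highest in group 8, at 67.3%, and was 64.9% in group 9 and 56.6% in the highest group. Its highest group by score, which is 10 times the negative log10 of the caller's p-value, was 45.8% private. KLF5 and MYC had a low private share in the highest group by fold, at 9.95 and 31.5%, against 19.1 and 46.1% in the lowest. Neither fell steadily by fold, and the share was highest in group 4 for KLF5 (27.2%) and in group 2 for MYC (51.5%). Ranked by width instead, the widest group was 30.8% private for HNF4A, 6.24% for KLF5 and 20.0% for MYC.

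**Figure D3:**
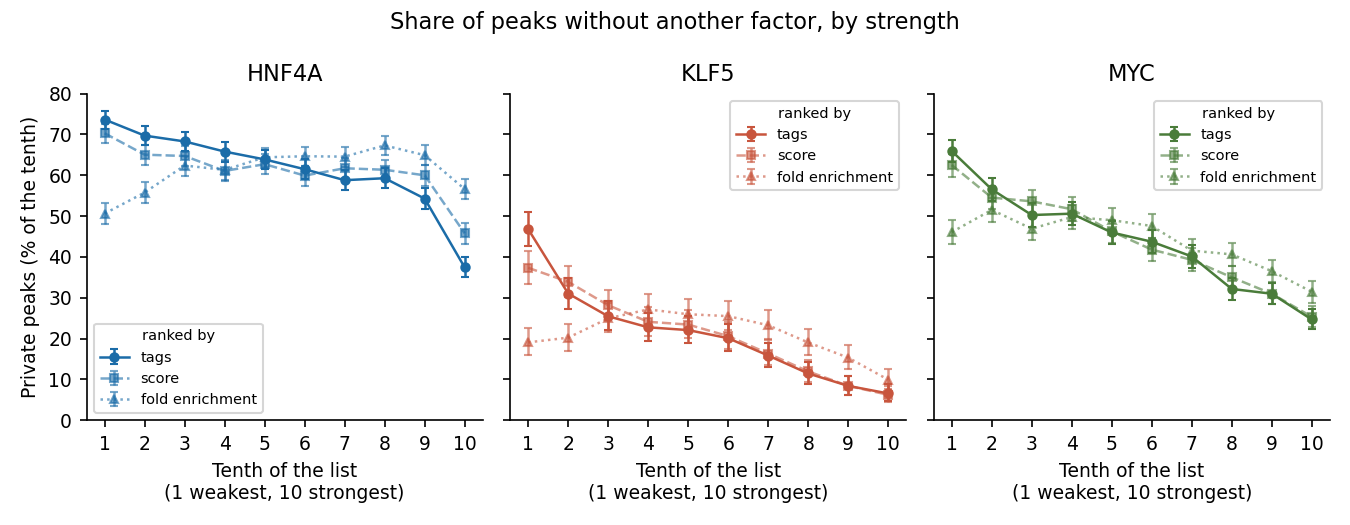
Private peaks in percent of each of 10 equal groups of the list (vertical axis) against the group, from the weakest to the strongest (horizontal axis), for HNF4A, KLF5 and MYC ranked by tags, score or fold enrichment. Bars are 95% Clopper-Pearson intervals over peaks. By tags, all 3 lines fall, to 37.4, 6.58 and 24.7%, whereas the HNF4A line by fold enrichment starts at 50.6%, reaches 67.3% in group 8 and ends at 56.6%.

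Tags per peak also differed between chromosomes, in the same way in all 3 libraries. On chromosomes 7, 12 and 15 the median was 38 to 41 tags for HNF4A, 37 to 38 for KLF5 and 38 to 44 for MYC. On the other 20 chromosomes it was 21 to 31, 20 to 29 and 18 to 31 tags. Sites of all 3 factors made up 14.0% of sites on chromosome 7, 14.3% on 12 and 16.0% on 15. Chromosome 17 had 14.0%, X had 1.75%, and the other 18 had 6.47 to 12.7%. Without chromosomes 7, 12 and 15, KLF5 overlapped MYC at 64.7% and HNF4A at 50.7% of its peaks, and the highest of the 10 groups by tags was 41.5% private for HNF4A, 7.14% for KLF5 and 28.2% for MYC. The part of these chromosome levels in the overlaps was not tested.

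At shared sites the strengths of the 2 factors were only loosely related. Over sites with 1 peak of each factor, Spearman's rho between tag counts was 0.420 for KLF5 and MYC (3696 sites), 0.332 for HNF4A and KLF5 (2966 sites) and 0.225 for HNF4A and MYC (4792 sites). The sites share the control library, the chromosome and the underlying peak width, so these values are descriptions. Widths were related more closely than tags, with rho of 0.475, 0.403 and 0.363 for the same pairs. By score, rho was 0.157, 0.0676 and -0.036, so the relation of HNF4A and MYC had no constant sign. At these 3696 KLF5-MYC sites, 447 KLF5 peaks and 632 MYC peaks were in the highest 10% of their own list by tags. Both were at 190 sites, 42.5% of the 447 and 30.1% of the 632. At the 4792 HNF4A-MYC sites, 780 HNF4A and 657 MYC peaks were in the highest 10%. Both were at 163 sites, 20.9% of the 780 and 24.8% of the 657.

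MYC peaks were the larger ones by width and tags at most shared sites, as they were over whole lists. MYC was broader than HNF4A at 64.7% of the sites with 1 peak each, by a median ratio of 1.15, and broader than KLF5 at 61.4%, by 1.09. KLF5 was broader than HNF4A at 56.9%, by 1.06. An HNF4A peak lay wholly inside the MYC peak at 1798 of 4792 sites, and the reverse was found at 759. In tags per 1000000 library tags, MYC was above HNF4A by a median of 0.39 on the log2 scale (median log2 ratio HNF4A over MYC -0.39), and the ratio of KLF5 over MYC was -0.46. HNF4A and KLF5 were level, with a median log2 ratio of 0.03. Over whole lists the median was 3.23 tags per 1000000 for MYC, 2.46 for HNF4A and 2.71 for KLF5. Whole-list median widths were 1354, 1149 and 1330 bp. By fold enrichment the median at HNF4A-MYC sites was 9.4 for HNF4A and 9.2 for MYC. At KLF5-MYC sites it was 8.39 for KLF5 and 9.89 for MYC.

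Summits, the base with the most fragments in a peak, lay close together at most shared sites but seldom at the same base. The median distance was 139 bp for KLF5 and MYC (128 to 147), 142.5 bp for HNF4A and KLF5 (133 to 154) and 174 bp for HNF4A and MYC (164 to 183). The first 2 medians have overlapping intervals, and the HNF4A-MYC interval lies above both. Within 50 bp of each other were 26.5% of KLF5-MYC, 24.1% of HNF4A-KLF5 and 20.7% of HNF4A-MYC summits. For scale, RAD21 and CTCF summits in S phase had a median distance of 48 bp, with 51.9% within 50 bp. No pair had a fixed order along the chromosome: the signed medians were -5, 3 and -3 bp. Sheared fragments of 200 to 400 bp limit how finely a summit can be placed.

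**Figure D4:**
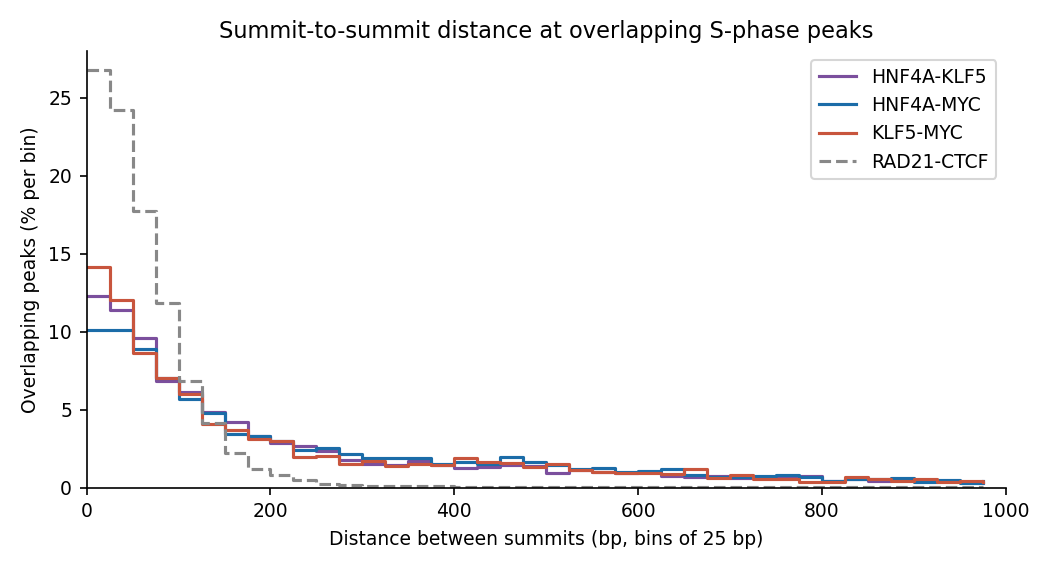
Share of overlapping S-phase peaks (vertical axis, percent per bin of 25 bp) against the distance between their summits in bp (horizontal axis, shown to 1000 bp) for the 3 factor pairs, with RAD21 and CTCF as a dashed line. All 3 factor pairs peak at the shortest distances and have long tails, with medians of 139 to 174 bp against 48 bp for RAD21 and CTCF.

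The distance was longer at strong and wide sites. With the shared peaks divided into 5 equal groups by the weaker partner's tag rank, the median from the lowest to the highest group went from 111.5 to 201 bp for KLF5-MYC, from 133 to 211 bp for HNF4A-KLF5 and from 138 to 282 bp for HNF4A-MYC. By the width of the narrower peak the range was greater. It ran from 97 to 288 bp for KLF5-MYC, from 115 to 319.5 bp for HNF4A-KLF5 and from 112.5 to 347 bp for HNF4A-MYC. Summits of overlapping peaks cannot lie further apart than the peaks reach, so narrower peaks leave less room for distance. How much of the rise with width this makes up was not tested. Where the third factor was present, the medians were 147, 152.5 and 191 bp, against 128, 125 and 162 bp without it. Sites of all 3 factors were also wider, and which of these measures goes with the distance on its own was not tested.

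At the 2133 sites with exactly 1 peak of each factor, the 3 summits spanned a median of 344 bp (320 to 371). The span was at most 50 bp at 156 sites (7.31%) and at most 200 bp at 770 (36.1%). The KLF5 summit lay between the other 2 at 37.7% of sites (35.6 to 39.8%), HNF4A at 31.1% and MYC at 31.2%. MYC had the most tags per 1000000 at 54.7% of these sites, HNF4A at 27.3% and KLF5 at 18.0%. MYC also had the highest median over whole lists, 3.23 against 2.46 for HNF4A and 2.71 for KLF5. Each factor had its own antibody and 1 library, so this order does not rank the factors by occupancy. At 855 sites (40.1%) at least 1 factor was above percentile 90 of its own list by tags, and at 69 (3.23%) all 3 were. Of all peaks with both partners, 20.7% for HNF4A, 17.4% for KLF5 and 20.7% for MYC were in the highest 10% by tags. Whether 69 differs from what unrelated ranks would give was not tested.

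Few peaks sat at the edge of the overlap rule. Shared pairs overlapped by at most 50 bp in 13 cases for HNF4A-KLF5, 30 for HNF4A-MYC and 10 for KLF5-MYC. Just outside it, 22 private HNF4A, 10 private KLF5 and 29 private MYC peaks had a gap of at most 50 bp to the nearest peak of another factor. The median gap was 46081 bp for private HNF4A, 26193 bp for private MYC and 16351 bp for private KLF5 peaks. Within 10000 bp of another factor were 38.2% of private KLF5, 29.3% of private MYC and 20.2% of private HNF4A peaks. Such gaps move with the lengths of the other lists, which together were longest for KLF5 and shortest for HNF4A. The part of list length in the gaps was not tested.

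Cohesin was found more often where factors met. RAD21 was present at 18.1% of HNF4A peaks, at 27.3% of those of KLF5 and at 26.8% of those of MYC. It was present at 10.1% of private and 30.7% of shared HNF4A peaks, a difference of 20.6 points (19.3 to 21.9). For KLF5 the shares were 15.8 and 30.4%, a difference of 14.6 points (12.1 to 16.98), and for MYC 21.9 and 30.7%, a difference of 8.81 points (7.23 to 10.4). At peaks with both partners, which are largely the same sites counted from each list, the shares were 36.7, 36.9 and 37.2%. Within 10 groups of equal size by tags the differences between shared and private peaks were 19.1, 12.2 and 6.63 points. RAD21 was called against the same IgG library as the factors. Shared peaks were also wider, with medians of 1270, 1385.5 and 1489.5 bp against 1096, 1129 and 1213 bp for private ones. A wider peak has more room for an overlap of at least 1 bp. The part of width in the RAD21 shares, and in the CTCF shares below, was not tested.

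CTCF was more frequent in each class with MYC (23.1 to 29.5%) than in any class without it (8.14 to 21.96%). The nearest of these had overlapping intervals, MYC peaks with HNF4A alone (21.5 to 24.7%) and private KLF5 peaks (19.7 to 24.4%). Classes of the same factors are largely the same sites counted from each list. Over whole lists it was present at 14.3% for HNF4A, 25.4% for KLF5 and, for MYC, 26.9%. HNF4A peaks with a partner had CTCF more often than private ones, 23.9 against 8.14%, a difference of 15.8 points (14.6 to 16.98). Private MYC peaks had CTCF in 27.9% of cases, slightly above the 26.1% of shared ones. The difference, shared minus private, was -1.76 points (-3.37 to -0.157), and -4.17 (-5.80 to -2.53) within groups of tags. For KLF5 it was 4.31 points (1.62 to 6.86), and 2.54 (-0.186 to 5.27) within groups of tags. KLF5 peaks with MYC alone had CTCF in 29.5% of cases and those with HNF4A alone in 16.8%. The difference, HNF4A alone minus MYC alone, was -12.7 points (-16.1 to -9.11), and -12.8 within groups of tags. RAD21 was present at 23.6% of KLF5 peaks with HNF4A alone and 24% with MYC alone, a difference of -0.432 points (-4.04 to 3.31). At HNF4A peaks RAD21 was less frequent with KLF5 alone than with MYC alone, 22.9 against 27.8%, a difference of -4.97 points (-8.24 to -1.51), and -5.72 within groups of tags. Per the file headers, the alignments behind the S-phase CTCF list carry another set name, and its control was goat IgG. Of its 28474 peaks, 8284 had a false discovery rate (FDR) of 5% or more. H3 peaks, few in all, were more frequent at private than at shared KLF5 peaks, 2.32 against 0.726%, and at private than at shared MYC peaks, 1.37 against 0.629%.

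**Figure D5:**
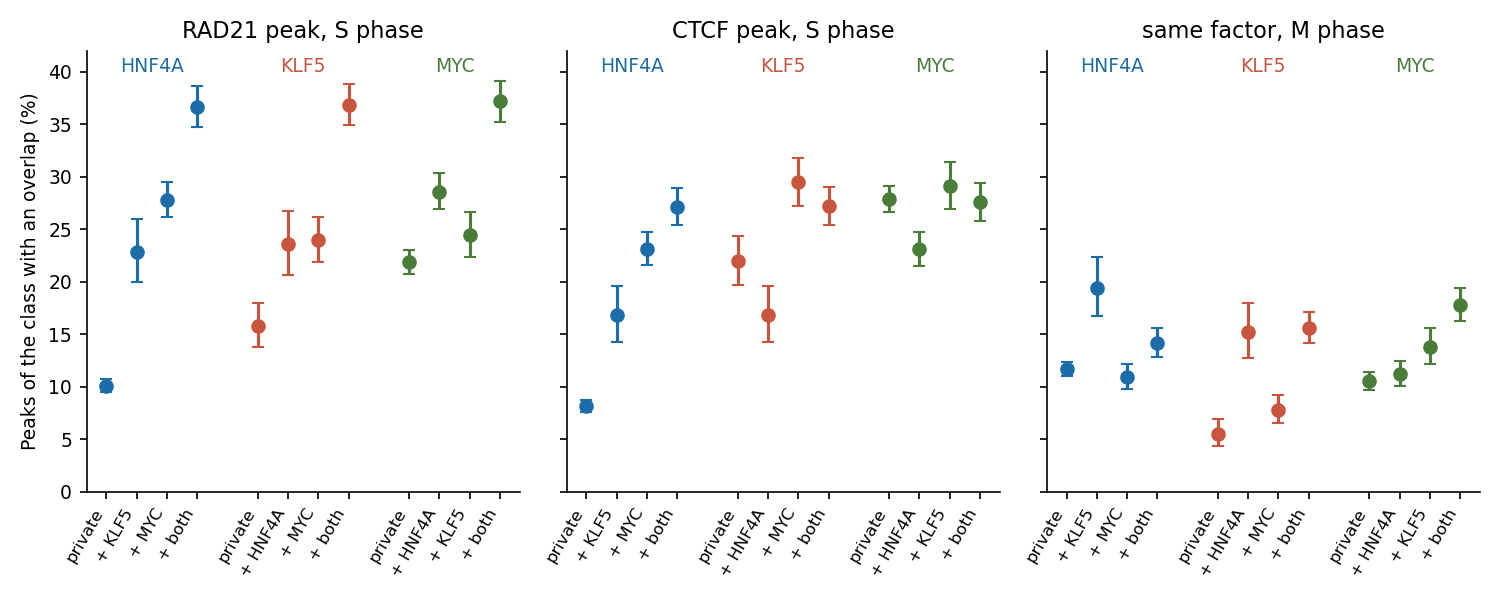
Percent of S-phase peaks of each class (vertical axis) that overlap an S-phase RAD21 peak, an S-phase CTCF peak or an M-phase peak of the same factor, by factor and overlapping partners (horizontal axis). Points are shares of 1 library and bars are 95% Clopper-Pearson intervals over peaks. RAD21 is highest at peaks with both partners (36.7 to 37.2%), and CTCF at KLF5 peaks is 29.5% with MYC alone and 16.8% with HNF4A alone.

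The M-phase lists gave another view of the same classes, but most of their peaks had an FDR of 5% or more. These were all 2413 HNF4A peaks, 1722 of 2118 KLF5 peaks and 1888 of 1974 MYC peaks. An M-phase peak of the same factor was found at 12.3% of S-phase peaks for HNF4A, 11.4% for KLF5 and, for MYC, 12.6%. HNF4A peaks with KLF5 alone had one in 19.4% of cases and those with MYC alone in 10.95%, a difference of 8.49 points (5.62 to 11.6). KLF5 peaks with HNF4A alone had one in 15.2% and with MYC alone in 7.81% of cases, a difference of 7.43 points (4.66 to 10.4). Within groups of tags these differences were 5.84 and 7.73 points. For MYC, 17.8% of peaks with both partners had one, against 12.2% of those with 1 partner and 10.5% of private ones. The difference between both partners and 1 was 5.61 points (3.81 to 7.45), and -1.29 (-3.11 to 0.530) within groups of tags. In the labels, the peak number of the M-phase KLF5 list stands at the M-phase rabbit IgG, the control of all 3 M-phase factor lists, and the labels do not settle whether the libraries were exchanged. The M-phase KLF5 list met 5.53% of the S-phase sites of KLF5 alone (4.33 to 6.95%), against 0.857% of those of HNF4A alone and 1.03% of those of MYC alone.

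Over all shared peaks the M-phase share exceeded that of private peaks, by 1.73 points (0.657 to 2.81) for HNF4A, by 7.44 (5.75 to 8.95) for KLF5 and by 3.68 (2.50 to 4.85) for MYC. Within 10 groups of equal size by tags HNF4A had a difference of -5.41 points (-6.38 to -4.45). KLF5 had one of 1.59 (0.191 to 2.99) and MYC one of -2.24 (-3.23 to -1.25). The sign thus turned for HNF4A and MYC. At merged sites, an M-phase peak of any of the 3 factors was found at 16.9% of all sites and at 38.6% of the sites of all 3. The latter sites hold S-phase peaks of more factors, so more M-phase lists can match them. Factor by factor, M-phase HNF4A was found at 14.7% of the sites of all 3 and 11.6% of the sites of HNF4A alone, and M-phase MYC at 18.3% and 10.5% of the sites of MYC alone. For M-phase KLF5 the shares were 15.8% and 5.53%. Of the 35 sites with M-phase peaks of all 3 factors, 28 were S-phase sites of all 3, and of the 373 with at least 2, 213 were. Among all 23218 merged sites, S-phase sites of all 3 made up 10.2%. The S-phase sites of all 3 are also the widest.

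Single sites show the range of these patterns. Positions are hg18, tags are as deposited, and no annotation of that build was used, so no site is assigned to a gene. Of the 6 sites of all 3 factors with the highest lowest tag rank, 5 lay on chromosome 7 and 1 on chromosome 12, both among the chromosomes with the most tags per peak. The first, on chromosome 7 from 27161129 to 27177261, chained 2 peaks of each factor over 16133 bp, with up to 269 HNF4A, 233 KLF5 and 351 MYC tags, and overlapped RAD21 and CTCF. A compact one on chromosome 7 from 5423662 to 5427574 had 215 HNF4A, 275 KLF5 and 169 MYC tags, the highest KLF5 count of its list, with the 3 summits inside 80 bp. It overlapped RAD21 without CTCF, and all 3 factors were listed there in M phase. Its neighbour on the same chromosome from 5429701 to 5437298 held an HNF4A peak of 412 tags with 2 peaks each of KLF5 and MYC, and was likewise listed for all 3 in M phase. On chromosome 12 from 6511287 to 6516931 MYC was the strongest, with 294 tags against 154 for HNF4A and 127 for KLF5, and MYC alone was listed in M phase.

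For the 3 pairs without the third factor, the summits lay close together at 1 of the 3 first-ranked sites, and closer at the second-ranked HNF4A-MYC and KLF5-MYC sites. On chromosome 2 from 47390026 to 47392153 HNF4A had 162 tags and KLF5 91, with summits at 47390806 and 47390805, no MYC peak, and both factors listed in M phase. HNF4A and MYC met on chromosome 9 from 126662218 to 126664884 with 151 and 175 tags, and their summits lay at 126663312 and 126663853. KLF5 and MYC met on chromosome 7 from 26205048 to 26209315 with 114 and 218 tags and summits at 26206485 and 26208091, and no factor was listed there in M phase. The second-ranked HNF4A-KLF5 site, on chromosome 19, had summits at 52291514 and 52291463. For HNF4A and MYC, on chromosome 11, the stronger of 2 HNF4A peaks had its summit at 17331789 and MYC at 17331777. For KLF5 and MYC, on chromosome 15, the summits lay at 64584417 and 64584234.

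Strong private peaks existed for each factor. The private HNF4A peak with the most tags, 221, lay on chromosome 15 from 31279008 to 31281971, overlapped RAD21 and CTCF and was listed for HNF4A in M phase. The private KLF5 peak with the most tags, 149, lay on chromosome 17 from 37063068 to 37065993 with neither RAD21 nor CTCF. MYC had 276 tags on chromosome 12 from 109389685 to 109392227, with RAD21 and CTCF and no peak of the other factors. Each of the 9 private peaks with the most tags, 3 per factor, had an M-phase peak of its own factor and of no other. They were chosen for their tags, and over all private peaks an M-phase peak of the same factor was found at 11.6% (HNF4A), 5.53% (KLF5) and 10.5% (MYC).

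Other sites show how far tags and summits can diverge. On chromosome 18 from 3250953 to 3252660 HNF4A had 153 tags and KLF5 89, while MYC had 12 tags, percentile 2.99 of its list. This site had the largest percentile difference among shared sites with 1 peak of each factor, away from H3 peaks, for both HNF4A over MYC and KLF5 over MYC. On chromosome 4 from 83568632 to 83571978 the order was turned, with 144 MYC, 26 KLF5 and 13 HNF4A tags. Among the 500 best-ranked sites with 1 peak of each factor, the tightest, on chromosome 12 from 52131250 to 52133314, had the 3 summits within 7 bp. The widest span, 3630 bp, was also on chromosome 12, from 56138490 to 56143594. There the KLF5 and MYC summits lay at 56142222 and 56142779, and the HNF4A summit, at the other end of the site, at 56139149.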

How the data were processed

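ChIP-seq peak lists of HNF4A, KLF5 and MYC in S phase, 1 library each, were compared, with S-phase RAD21, CTCF and H3 and the M-phase factor lists as further readouts. Groups were taken from the sample titles. Reads were processed with CASAVA 1.4, BWA and MACS 1.4 on hg18, per the submitters' processing notes. Per the file headers, MACS 1.4.0rc2 called peaks against IgG at a p-value cutoff of 1e-05. Tag counts per peak, as deposited, are whole numbers and not normalized. The deposited score is 10 times the negative log10 of the p-value, with a minimum of 50. The deposited fold enrichment is a ratio over the local background, and the deposited FDR is a percent. It stayed at or below 3.17% in the 3 S-phase factor lists and at or below 1.44% in the S-phase RAD21 list. It was 5% or more at 8284 of 28474 S-phase CTCF peaks, 1052 of 3290 S-phase H3 peaks and most M-phase factor peaks. All listed peaks were used.

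Overlaps of at least 1 bp, summit distances (nearest summit, from the shorter list), sites and ranks were computed with scipy 1.17.1, pandas 2.3.3 and numpy 2.4.6 in Python 3.11.15. Tags per 1000000 divide the deposited tags by the filtered tags in the header. Shares have exact Clopper-Pearson intervals, differences Newcombe intervals, medians order-statistic intervals, and differences within 10 equal groups of tags, weighted by the smaller class, normal intervals from binomial variances. No p-value was computed. Overlap and within-group steps were tested on simulated data.

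Named sites, away from H3 peaks, are the leading ones by the lowest tag percentile (6 of all 3 factors, 2 per pair), by tags (3 private per factor), by summit span (2 smallest and 2 largest) and by percentile difference (1 per ordered pair), and a part of them is given. Members and rules were chosen with earlier results of these data known. Alternatives covered the overlap rule, score, FDR, list length, H3 peaks, strength measure and tags. Motifs and genes at the peaks were not analysed here, since no hg18 sequence or annotation was used.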

Additional observations from a re-analysis of the deposited data

How the results depend on the processing

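In every alternative run, KLF5 overlapped MYC more often than HNF4A, MYC overlapped HNF4A less often than KLF5 did, and the private share ran HNF4A above MYC above KLF5. The levels moved. Given as KLF5 with MYC, KLF5 with HNF4A and MYC with HNF4A, the overlaps were 57.1, 44.6 and 34.4% with 50% of each peak shared, 27.7, 21.4 and 15.6% with summits within 100 bp, 61.2, 41.7 and 26.1% at a score of at least 100, and 41.6, 23.5 and 17.6% for the 5000 peaks of highest score. The private shares of HNF4A, KLF5 and MYC were 67.3, 28.2 and 51.8% with 50% of each peak shared, 82.9, 58.9 and 74.7% with summits within 100 bp, 73.0, 25.4 and 63.5% at a score of at least 100, and 70.1, 46.2 and 52.4% for the 5000 peaks of highest score. Leaving out peaks at H3 peaks moved no overlap, private share or summit distance beyond its interval, and the FDR limit of 5% removed no S-phase factor peak. Counting only pairs with 1 partner on both sides moved no summit distance beyond its interval.

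Summit distances for HNF4A-KLF5, HNF4A-MYC and KLF5-MYC were 125, 147 and 123 bp with 50% of each peak shared and 161, 281 and 154 bp for the 5000 peaks of highest score. At a score of at least 100, HNF4A-MYC moved to 231 bp. Rank correlations for the same pairs were 0.0676, -0.036 and 0.157 by score, 0.184, 0.0577 and 0.269 by tags per kb, and 0.190, 0.0341 and 0.191 by fold enrichment. Within 10 equal groups of tags, the difference between shared and private peaks was 107, 21.1 and 67.4 bp of width for HNF4A, KLF5 and MYC, 19.1 points of RAD21 overlap for HNF4A and 6.63 for MYC, and -5.41, 1.59 and -2.24 points of M-phase overlap. The cause of these shifts was not tested.

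Other alternatives were chosen after seeing the data. The private share in the highest of 10 equal groups was, for HNF4A, 45.8% by score, 56.6% by fold enrichment and 49.5% by tags per kb. For KLF5 it was 9.95% by fold enrichment and 9.61% by tags per kb, and for MYC 31.5 and 34.0%. Without chromosomes 7, 12 and 15, KLF5 overlapped HNF4A at 50.7% and MYC at 64.7% of its peaks, MYC overlapped HNF4A at 40.6%, 62.4% of HNF4A and 45.8% of MYC peaks were private, and the highest of the 10 groups was 41.5% private for HNF4A and 28.2% for MYC. The rank correlations were then 0.275 for HNF4A-KLF5, 0.161 for HNF4A-MYC and 0.354 for KLF5-MYC. With 1 library per factor no library could be left out. No paired analysis was possible because the results come from no test. The weakest peaks rest on few tags, with a minimum of 12 for HNF4A and KLF5 and 11 for MYC, and the effect of depth was not tested.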

Other observations

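The balance of the factors differed along the genome. HNF4A had the most peaks on 19 of 23 chromosomes and MYC on 4, which were chromosomes 16, 17, 19 and 22. MYC had 1.32 peaks per HNF4A peak on chromosome 19 and 0.594 on chromosome 4. The site that chained the most peaks lay on chromosome 22 from 44846374 to 44862500, with 4 peaks of each factor over 16127 bp, overlapping RAD21 but no CTCF peak. It was named after its values were seen. Next came a site on chromosome 7 from 27177277 to 27187298 with 7 peaks, between the sites of 6 peaks each from 27161129 to 27177261 and from 27190738 to 27201528.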
